A study of Drosophila melanogaster with 6 samples.

Results

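The Dpr, DIP, Beat and Side genes code for cell surface and secreted proteins of the immunoglobulin superfamily. All 54 were described here in clock neurons sorted from brains of adult Drosophila melanogaster, of 17868 genes listed in the count files. They were chosen by symbol: 21 genes named dpr with a number, 11 DIP genes, 14 beat genes and 8 side genes. Every member had a match in the Ensembl annotation of the BDGP6 assembly, which has dm6 coordinates, and all coordinates below are from that annotation.

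The libraries were 3 of a control group and 3 of a Prp3-RNAi group. Both genotypes carried on the second chromosome the driver Clk-GAL4, active in clock neurons, and a nuclear green fluorescent protein (GFP) under UAS control. The Prp3-RNAi flies carried, on the other second chromosome, a UAS hairpin transgene against Prp3, a gene of the spliceosome. The control flies, labelled wildtype, carried the driver and GFP with no hairpin of any kind. All flies lived in 12 h of light and 12 h of dark for 5 days and were collected at zeitgeber time 14, counted in hours from lights-on. About 2000 GFP-positive cells that excluded the dead-cell dye DAPI were sorted per library and their polyadenylated RNA was sequenced. How many brains gave these cells is not given in the sources used here. Each control title names a Prp3-RNAi library as its pair, and pairs are numbered 1 to 3 below. The titles do not say what a pair shares, so p-values measure the spread between these libraries, which may be in part technical.

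Dpr proteins bind DIP proteins across the space between neurons. Different neuron types carry different members, and the matches help axons and dendrites find partners and help synapses form. Beat proteins are receptors, some of them secreted, and Side proteins are their ligands on other cells. The pair beat-Ia and side was first known from motor axons, where Side on the target attracts axons that carry Beat-Ia. In these families the set of members that a neuron expresses is part of what marks its type.

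The libraries held 24477244 to 32551739 gene counts. Levels are given as CPM, read counts scaled to a common library size by TMM (a scaling by the trimmed mean of the ratios between libraries), and levels of different genes are compared as CPM per kb of exon. Where values are listed by library, they stand in the order of pairs 1, 2 and 3. Prp3 itself had 45.6, 68.8 and 29.4 CPM in control, against 27.0, 28.3 and 10.8 CPM in Prp3-RNAi. It was lower in all 3 pairs, and its log2 fold change came to -1.16 (SE 0.24), with 0.384 as the adjusted p-value. The neuronal marker elav lay at 161 to 207 CPM. Of 8 clock genes, tim lay at 557 to 830 CPM, but Clk at 9.10 to 28.5 CPM and per at 9.99 to 33.4 CPM. The fold change was below 0 for 5 of the 8. cry had 222, 190 and 105 CPM in control and 85.2, 81.1 and 90.9 CPM in Prp3-RNAi, a log2 fold change of -0.95 (SE 0.26, p 0.428 after adjustment). The photoreceptor markers summed to 245 to 411 CPM, most of it from norpA, at 206 to 354 CPM. The median level of the 11 tested was 2.15 CPM. Of these, 6 had a fold change above 0 and 5 below, with ninaC and Arr2 higher in all 3 pairs and 0 lower in all 3. The muscle gene Mhc stayed at 0.520 CPM or less, and the 6 muscle markers summed to 0.133 to 5.03 CPM, with control library 3 the highest. Of the 10 glial markers, the nuclear glial factor gene repo was at 1.56 CPM or less, but others were well above 0: nrv2 ran from 119 to 142 CPM, Gs2 from 61.2 to 502 CPM and Gat from 7.25 to 58.2 CPM. The glial markers summed to 302 to 767 CPM, with control library 3 the highest. Gs2 gave most of the sum in that library, with 502 of 767 CPM. Of the 9 glial markers tested, 4 were highest in control library 3, among them Gs2 and Gat. Eaat1 went the other way, with 27.2 CPM there and 74.3 to 98.3 CPM in the other libraries. Control library 3 stood apart. Its hemocyte markers Hml, NimC1 and Ppn were at 45.9, 29.0 and 46.1 CPM, where no other library passed 0.188, 0 and 1.27 CPM. The summed CPM of the 7 hemocyte and fat body markers was 121 in that library and 0.658 to 4.53 in the others. Peptides of clock neuron subtypes differed between libraries and between groups. Pdf, which marks lateral clock neurons, had 15942, 2566 and 17385 CPM in control, against 302, 155 and 19961 CPM in Prp3-RNAi. CNMa (1520, 1334 and 1090 CPM in control, 540, 218 and 612 in Prp3-RNAi), CCHa1 (524, 601 and 404 CPM, then 0, 92.2 and 58.7) and Trissin (2356, 718 and 1687 CPM, then 0, 68.3 and 7.57) were lower in all 3 pairs without overlap. Of the 10 peptide genes, 8 had a fold change below 0, with a median of -0.77 on the log2 scale; edgeR called 0 of them and DESeq2 3. The part of these clock, photoreceptor, subtype and glial markers in the members' values was not tested. In bulk samples, fewer cells of a type and less RNA per cell cannot be told apart.

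Nearly the whole repertoire was present. Of the 54 members, 53 passed the filter on low counts and were tested, and 52 had counts in all 6 libraries. The exception among the tested members was DIP-iota (chromosome 2L, 6617134 to 6621700), with 87, 56 and 52 counts in control, against 0, 37 and 68 counts in Prp3-RNAi. Prp3-RNAi library 1 is thus the only library without it. A count of 0 there allows up to 3 counts, by counting error alone. The member that was not tested, beat-IIIa (chromosome 2L, 17131024 to 17173118), had 0 counts in every library. All of its exon sequence is shared with CG34106 on the same strand in the annotation, and CG34106 was also at 0. The files hold a separate line for reads that are ambiguous between genes, so the 0 cannot be read as absence of beat-IIIa RNA.

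The typical member was expressed above the typical gene. The median control level was 22.1 CPM per kb over the 53 tested members and 12.5 CPM per kb over the 8256 tested genes with an exon length, and 40 of the 53 members lay above the latter value. The families differed in range. The median control level was 32.0 CPM per kb for the dpr genes, 36.1 for the 13 tested beat genes, 13.8 for the DIP genes and 8.57 for the side genes. The beat genes were the most even family, from 14.9 to 56.3 CPM per kb, while dpr genes ran from 1.43 to 619 and DIP genes from 0.820 to 41.0. Side genes ran from 3.37 to 25.1 CPM per kb. Order by CPM without length kept 8 of the 12 genes that were among the top 3 of their family.

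**Figure D1:**
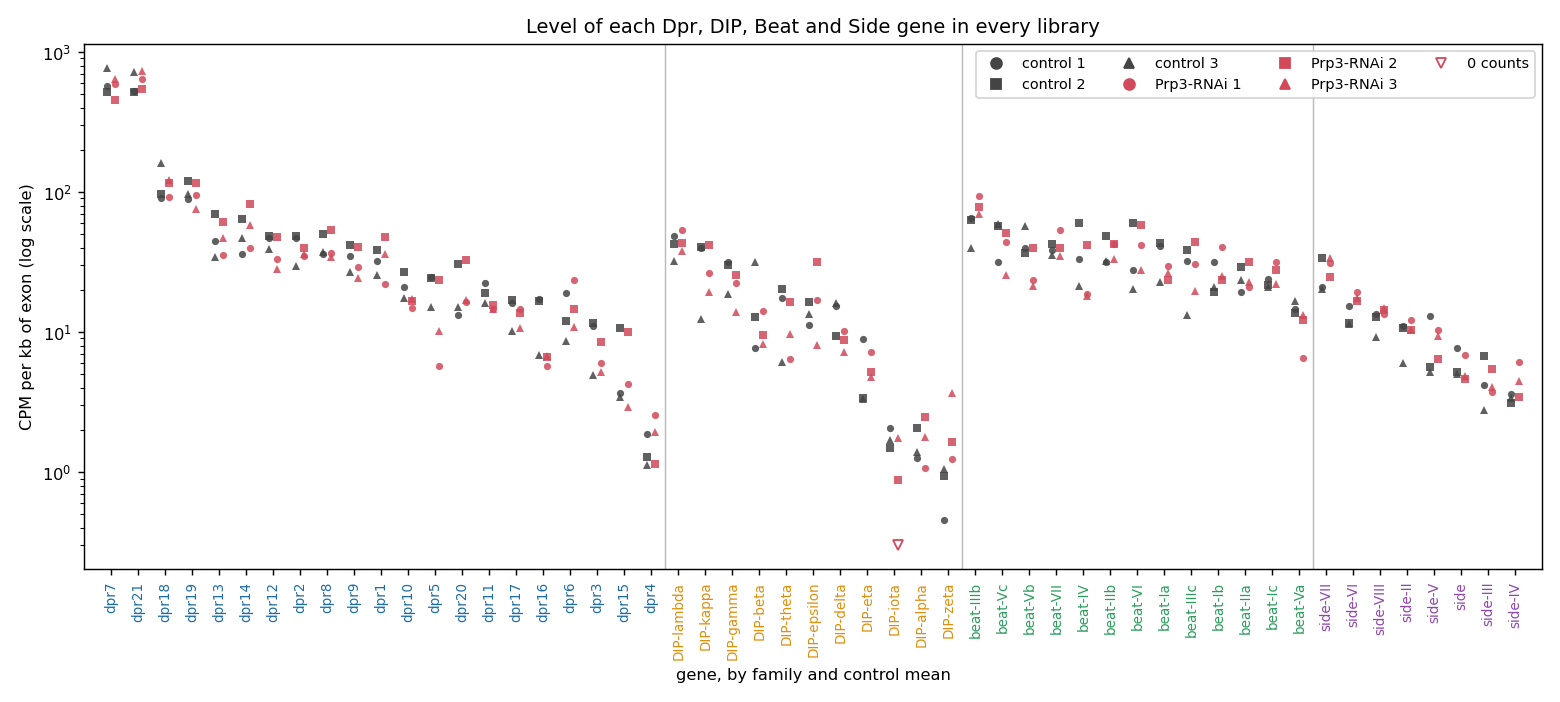
Level of each tested gene in CPM per kb of exon on a log scale, 1 symbol per library, black for control and red for Prp3-RNAi, with genes ordered within family by the control mean. dpr7 and dpr21 stand above all others at 619 and 587 CPM per kb in control, and the open triangle marks the library of DIP-iota with 0 counts.

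dpr7 and dpr21 led all members by a wide margin. dpr7 (chromosome 4, 247124 to 253329), the only member on that chromosome, had 863, 782 and 1168 CPM in control, against 902, 692 and 972 CPM in Prp3-RNAi. dpr21 (chromosome 2R, 3066499 to 3191011) had 521, 512 and 717 CPM in control and 637, 544 and 722 CPM in Prp3-RNAi. Both groups overlapped for both genes. Their control levels were 619 ± 134 and 587 ± 117 CPM per kb (SD, n = 3), which do not differ beyond their spread. They were the only members among the top 10% of tested genes by level per kb, since 98.5% and 98.4% of those genes were lower. Their exon models are short, 1515 bases for dpr7 and 993 for dpr21, which raises a level per kb, but they were also first and second by CPM alone and held 40.2% of the summed control CPM of the dpr family. dpr18 (chromosome X, 16063738 to 16070304) came next at 116 ± 39.6 CPM per kb, and dpr19 (chromosome 2L, 10376168 to 10379905) at 102 ± 15.6 CPM per kb, within the spread of dpr18. dpr18 had 238, 254 and 426 CPM in control and 243, 305 and 322 CPM in Prp3-RNAi, with control library 3 the highest.

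Among the DIP genes, DIP-lambda, DIP-kappa and DIP-gamma led. DIP-lambda (chromosome 2R, 326768 to 705848), the longest gene of the 54 at 379081 bases, had 120, 104 and 79.1 CPM in control and 131, 107 and 93.5 CPM in Prp3-RNAi. DIP-kappa (chromosome 2L, 13676860 to 13717320) had 159, 161 and 49.6 CPM in control and 105, 168 and 77.0 CPM in Prp3-RNAi, so both libraries of pair 3 were the low ones. The control levels of DIP-lambda and DIP-kappa, 41.0 ± 8.32 and 31.0 ± 16.1 CPM per kb, overlap. DIP-alpha and DIP-zeta were at the bottom of the family, with 1.58 ± 0.438 and 0.820 ± 0.319 CPM per kb.

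For the best known partners, RNA of both genes was present in the sorted pools. Their control levels were unequal except for DIP-gamma and dpr11, whose levels overlapped. Whether the same cells held both cannot be read from bulk libraries. DIP-alpha (chromosome X, 3507245 to 3571649), the receptor of Dpr6 and Dpr10 at motor and optic lobe synapses, had 11.3, 18.6 and 12.5 CPM in control and 9.60, 22.3 and 15.9 CPM in Prp3-RNAi. Its partners dpr6 and dpr10 stood at 13.3 ± 5.32 and 21.7 ± 4.77 CPM per kb in control, above the 1.58 CPM per kb of DIP-alpha. DIP-gamma (chromosome 3R, 28925004 to 28970372), the partner of Dpr11 in the fly colour vision circuit, had a control level of 26.8 ± 7.13 CPM per kb, and dpr11 (chromosome 3R, 6529169 to 6593330) had 19.1 ± 3.04. DIP-delta (chromosome 3L, 5424109 to 5442399) had 13.7 ± 3.67 CPM per kb and its partner dpr12 (chromosome 2R, 5804712 to 5860831) 44.9 ± 5.08. beat-Ia (chromosome 2L, 16049965 to 16081684) had 35.7 ± 11.3 CPM per kb and its ligand gene side (chromosome 3R, 27375088 to 27437482) 5.98 ± 1.45. beat-IIa and beat-IIb, whose products bind Side-IV, had 24.1 ± 4.94 and 37.4 ± 9.78 CPM per kb, while side-IV had 3.37 ± 0.237. The level of side-IV (chromosome 3R, 13450590 to 13464184) is a lower limit, because 67.5% of its exon sequence is shared with antisense RNA genes on the other strand. Its counts over the 6 libraries came to 3601, against 10676 when the columns for the separate strands were summed, and reads of side-IV and of the antisense genes cannot be told apart in libraries that do not mark strand. In the same way dpr4, with 15.7% of its exon sequence shared with an antisense RNA gene, had 872 counts against 1501. These were the largest such gaps among the members, and 45 of the 54 shared no exon sequence with another annotated gene.

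The question of the comparison is how a lower level of Prp3 changes transcripts of clock neurons. No member of the 4 families passed the correction over all genes. With edgeR's quasi-likelihood fit and the pair as a block, 0 of the 53 tested members and 0 of all 8708 tested genes (0.0%) passed 0.05 after adjustment. DESeq2 called 380 genes (4.36%), of which 1 was a member, beat-IIIb. An unadjusted p-value under 0.05 was reached by 6 members (11.3%), against 9.98% of all tested genes, a share near the background. Of these, 3 were higher in Prp3-RNAi (beat-IIIb, side-VI and dpr14, where 4.71% of all tested genes were), and 3 were lower (beat-IV, DIP-gamma and dpr16, where 5.27% were). Without the replicate block 3 members reached this level, side-VI, dpr16 and DIP-delta, where 4.83% of all tested genes did. The fold changes of the 53 members ran from -1.85 to 1.34 on the log2 scale and passed 1 in size for 2 of them, both among the lowest in level. The median was 0.03 for members and 0.01 for all tested genes. The groups did not overlap in CPM for 7 members (13.2%), against 11.6% of all tested genes. DIP-zeta, beat-IIIb and side-VI were higher without overlap (6.27% of all tested genes), and dpr16, dpr11, dpr10 and beat-Va were lower (5.34%). In all 3 pairs 22 members (41.5%) differed in the same direction, against 35.1% of all tested genes, with 11 higher (17.5% of all tested genes) and 11 lower (17.6%).

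**Figure D2:**
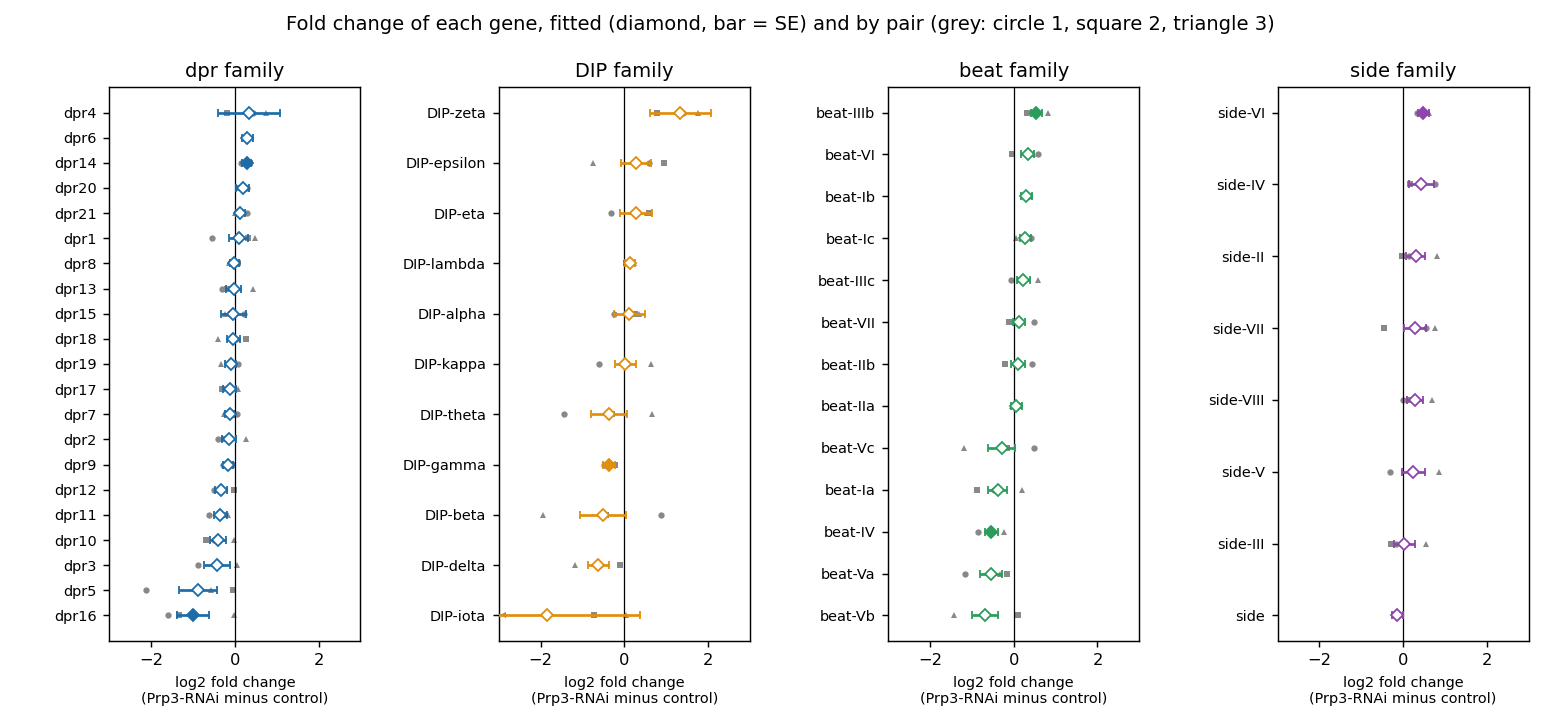
Log2 fold change of each tested gene (Prp3-RNAi minus control) with its SE, filled diamonds for an unadjusted p under 0.05, and the difference within each pair in grey, with 1 value beyond the axis drawn as an arrow at the left edge. Diamonds of the dpr family lie mostly left of 0 (15 of 21) and those of the side family mostly right (7 of 8), with small sizes.

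The beat genes held the member with the smallest p-value. beat-IIIb (chromosome 2L, 16973091 to 16993984) had 214, 206 and 129 CPM in control, against 302, 255 and 227 CPM in Prp3-RNAi. All Prp3-RNAi libraries lay above all control libraries. The means were 183 ± 46.8 and 261 ± 38.2 CPM (SD, n = 3). The log2 fold change of 0.54 (SE 0.13) had an unadjusted p of 0.00887, and 0.424 after adjustment. DESeq2 called it with an adjusted p-value of 0.0223, in a range of 0.0223 to 0.999 over the alternatives. Without control library 3, in a fit with no replicate block, its log2 fold change was 0.32. beat-IIIc, of the same stretch of chromosome 2L, had a log2 fold change of 0.23 (SE 0.16, p 0.678 after adjustment).

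beat-IV (chromosome 3R, 23557412 to 23580077) had 112, 203 and 71.5 CPM in control and 62.5, 141 and 61.0 CPM in Prp3-RNAi. It was lower in all 3 pairs, but pair 2 was high in both groups and the groups overlapped. Its log2 fold change was -0.53 (SE 0.16, p-value 0.0194 before and 0.44 after adjustment). The beat-V genes, which lie near each other on chromosome 3R, all had fold changes below 0. beat-Va (12840560 to 12848419) had 46.5, 43.5 and 52.9 CPM in control and 20.8, 38.9 and 42.2 CPM in Prp3-RNAi, without overlap. beat-Vb (12916056 to 12934813) had 74.8, 70.0 and 109 CPM in control and 44.6, 75.4 and 40.6 CPM in Prp3-RNAi. beat-Vc (12746036 to 12783216) had 71.3, 129 and 133 CPM in control and 99.7, 115 and 57.8 CPM in Prp3-RNAi. All 3 were highest in control library 3, the library with hemocyte markers, whose part in these values was not tested. Their log2 fold changes were -0.55 (SE 0.26), -0.69 (SE 0.31) and -0.29 (SE 0.33), with adjusted p-values of 0.549 to 0.822. These values rested on single pairs: beat-Va was at -0.23 without pair 1, beat-Vb at -0.32 without pair 3 and -1.08 without pair 2, and beat-Vc at 0.16 without pair 3 and -0.67 without pair 1.

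The beat-I genes were mixed in direction. Among them, beat-Ia had 118, 124 and 65.4 CPM in control and 85.1, 67.2 and 75.4 CPM in Prp3-RNAi, with a log2 fold change of -0.39 (SE 0.24), which ran from -0.13 without pair 2 to -0.68 without pair 3. beat-Ib and beat-Ic, close by on chromosome 2L, had 0.30 (SE 0.14) and 0.28 (SE 0.13) and were higher in all 3 pairs. beat-IIa and beat-IIb (chromosome 3R, 17320004 to 17366119 and 17232253 to 17265049) were close to 0, at 0.06 (SE 0.14) and 0.09 (SE 0.17). beat-IIa had 61.4, 92.8 and 75.5 CPM in control and 66.3, 101 and 73.1 CPM in Prp3-RNAi. beat-IIb had 77.3, 120 and 78.6 CPM in control and 104, 104 and 81.7 CPM in Prp3-RNAi. Over the 13 tested beat genes the median log2 fold change was 0.09, with 8 above 0 and 5 below.

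Of the side genes, 7 of 8 had a fold change above 0, where 50.9% of all tested genes did, and their median was 0.28. Within the pairs this median was 0.07, 0.06 and 0.65, so pair 3 carried most of it, and it was 0.05 without pair 3. Control library 3 was the lowest of the 6 libraries for 6 of the 8 genes, against 39.6% of all tested members and 18.4% of all tested genes. side-VI (chromosome 3R, 10972381 to 11050175) had 113, 85.9 and 83.8 CPM in control and 143, 122 and 128 CPM in Prp3-RNAi. The groups did not overlap, and the pairs differed by 0.33, 0.51 and 0.61 on the log2 scale. Its log2 fold change of 0.48 (SE 0.13) had an unadjusted p of 0.0109, and 0.427 after adjustment, in a range of 0.0924 to 0.999 over the alternatives. side-VII (chromosome 3R, 9734012 to 9739979), the side gene with the highest level, had 93.6, 150 and 89.3 CPM in control and 137, 110 and 151 CPM in Prp3-RNAi, with overlap. side-VIII (chromosome 2R, 20424338 to 20478951) had 74.0, 70.9 and 51.0 CPM in control and 73.7, 78.7 and 82.3 CPM in Prp3-RNAi, where control library 3 was the low value. side had 89.8, 61.3 and 59.3 CPM in control and 80.3, 53.8 and 57.0 CPM in Prp3-RNAi and was the only side gene with a fold change below 0, at -0.14 (SE 0.14). side-IV had 18.4, 16.0 and 17.4 CPM in control and 31.2, 17.7 and 22.8 CPM in Prp3-RNAi, and its log2 fold change was 0.43 (SE 0.30), or 0.31 with the strand columns summed.

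**Figure D3:**
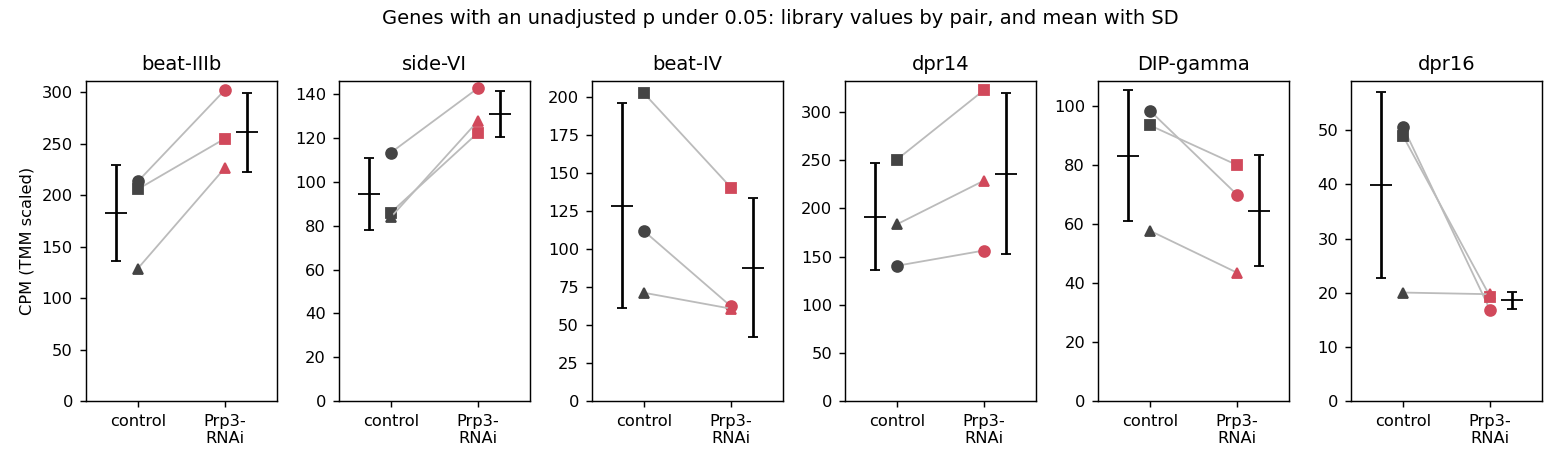
CPM of the 6 genes with an unadjusted p under 0.05 in each library, with grey lines joining the libraries of a pair (circle 1, square 2, triangle 3), and the group mean with SD in black (n = 3). The lines run the same way in all 3 pairs of each gene, and for dpr16 the line of pair 3 is almost flat.

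In the dpr family 15 of 21 genes had a fold change below 0 and the median was -0.10. This median was -0.11 without pair 3. With no replicate block it was -0.090 with all libraries and -0.25 when control library 3 alone was left out, a fit that keeps its low partner, Prp3-RNAi library 3. dpr16 (chromosome 3R, 5150908 to 5170121) had the largest fold change of the family. It had 50.6, 48.9 and 20.1 CPM in control and 16.8, 19.3 and 19.8 CPM in Prp3-RNAi. The groups did not overlap, but control library 3 was at the level of the Prp3-RNAi libraries. Its log2 fold change of -0.99 (SE 0.38) had an unadjusted p of 0.0461, and 0.489 after adjustment. It moved from -0.67 without pair 1 to -1.46 without pair 3. A small part of its exon sequence, 4.0%, is shared with cno on the other strand. dpr14 (chromosome X, 7903704 to 7908286) had 141, 251 and 183 CPM in control and 156, 323 and 229 CPM in Prp3-RNAi. The groups overlapped and every pair was higher in Prp3-RNAi, with a log2 fold change of 0.28 (SE 0.11, p-value 0.0446 before and 0.486 after adjustment). For dpr7, dpr21 and dpr18 the log2 fold changes were -0.13 (SE 0.10), 0.13 (SE 0.10) and -0.04 (SE 0.15).

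The partners dpr6 and dpr10 had fold changes of opposite sign. They lie near each other on chromosome 3L, at 9974651 to 10139360 and 10147454 to 10186108. dpr6 had 120, 75.9 and 54.6 CPM in control and 149, 91.8 and 68.5 CPM in Prp3-RNAi. The libraries of a pair lay close together, and the pairs differed by 0.30, 0.27 and 0.33 on the log2 scale. dpr10 had 74.2, 95.2 and 61.7 CPM in control and 52.4, 58.7 and 61.4 CPM in Prp3-RNAi, without overlap but with control library 3 and Prp3-RNAi library 3 almost equal. Neither was called, with log2 fold changes of 0.30 (SE 0.12, p 0.516 after adjustment) and -0.40 (SE 0.19, p 0.553 after adjustment), and the difference between them was not tested. Their receptor gene DIP-alpha had 0.12 (SE 0.37).

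The partners DIP-gamma and dpr11 were both lower in all 3 pairs. DIP-gamma had 98.3, 93.3 and 57.7 CPM in control and 69.9, 79.9 and 43.5 CPM in Prp3-RNAi, with overlap. dpr11 had 104, 87.8 and 75.6 CPM in control and 68.0, 72.8 and 67.6 CPM in Prp3-RNAi, without overlap. The log2 fold changes were -0.37 (SE 0.14, p-value 0.0451 before and 0.487 after adjustment) and -0.35 (SE 0.16, p 0.547 after adjustment). DIP-delta and dpr12 were also lower in all 3 pairs. DIP-delta had 73.6, 45.4 and 77.9 CPM in control and 48.9, 42.5 and 34.5 CPM in Prp3-RNAi, and dpr12 had 221, 229 and 184 CPM in control and 157, 226 and 133 CPM in Prp3-RNAi. In both genes pair 2 hardly differed, by -0.09 and -0.02 on the log2 scale. The log2 fold changes were -0.62 (SE 0.25, p 0.505 after adjustment) and -0.33 (SE 0.14, p 0.527 after adjustment), and that of DIP-delta was -0.34 without pair 3.

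The DIP family had a median log2 fold change of 0.03, which was below 0 without the replicate block, at -0.084. DIP-zeta (chromosome 2L, 9051631 to 9071164) had the largest fold change in the same direction in all pairs. It had 1.63, 3.36 and 3.77 CPM in control and 4.39, 5.87 and 13.0 CPM in Prp3-RNAi, a log2 fold change of 1.34 (SE 0.73, p 0.603 after adjustment) at the lowest control level per kb of any tested member. The counts behind these values were 52, 95 and 87 in control and 132, 185 and 379 in Prp3-RNAi. DIP-beta (chromosome X, 21422115 to 21457738), named here after its values were seen, had 40.6, 67.7 and 168 CPM in control and 74.7, 50.1 and 43.4 CPM in Prp3-RNAi. Its pairs differed by 0.88, -0.44 and -1.95, so the direction was not the same in all pairs.

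**Figure D4:**
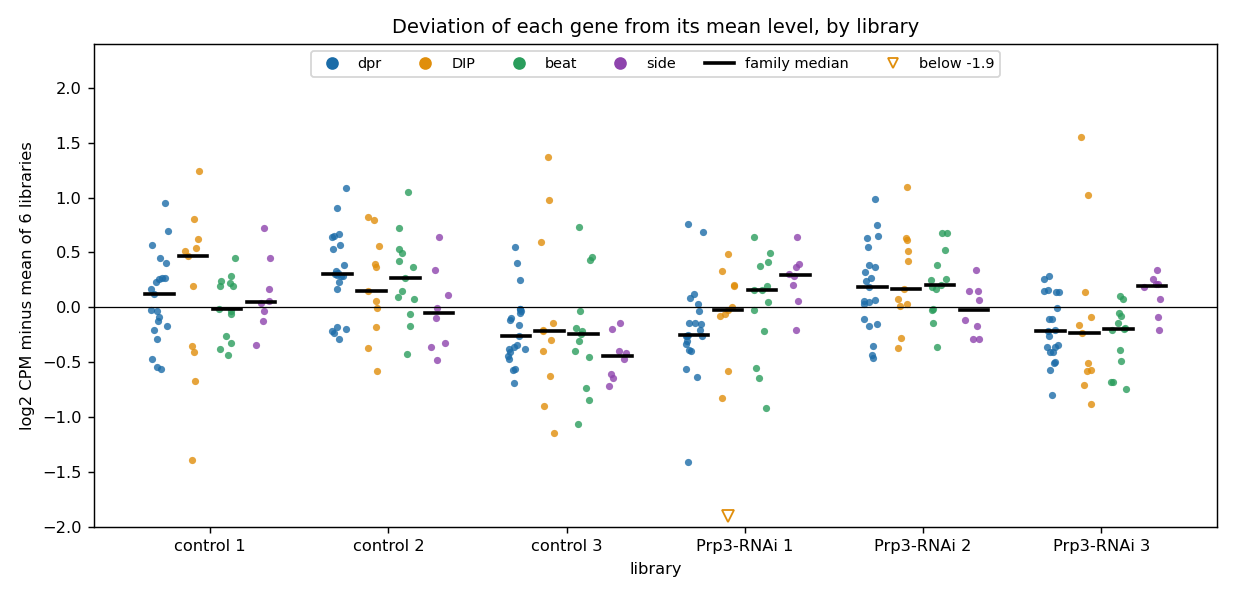
Log2 CPM of each tested gene minus its mean over the 6 libraries, by library and coloured by family, with the family median as a black bar and the open triangle for DIP-iota in the library with 0 counts. In control 3 the medians of all 4 families lie below 0, from -0.21 to -0.44.

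The lowest libraries were mostly those of pair 3. Of the 53 members, 34 (64.2%) had their lowest CPM in a library of pair 3, against 33.7% of all tested genes. So did 6 of 9 synaptic adhesion genes, 6 of 12 leucine-rich repeat genes and 4 of 8 pan-neuronal markers. It was 5 of 17 for other immunoglobulin adhesion genes (29.4%) and 7 of 21 for guidance genes (33.3%), no more than for all tested genes. Over these 4 lists of other wiring genes it was 24 of 59 (40.7%). Control library 3 was the lowest for 21 members (39.6%, against 18.4% of all tested genes) and Prp3-RNAi library 3 for 13 (24.5%, against 15.4%). The median member stood -0.30 from its mean on the log2 scale in control library 3 and -0.19 in Prp3-RNAi library 3, while the median tested gene stood at 0.03 in each. The side genes went the other way in Prp3-RNAi library 3, with a median of 0.20. Control library 2 was the highest for 15 members (28.3%, against 16.1% of all tested genes), 9 of them dpr genes. Members that were instead highest in control library 3 numbered 7, where 20.4% of all tested genes were, among them dpr7, dpr18, DIP-beta and the 3 beat-V genes. Pair 3 was also the pair with high Pdf in both libraries, and control library 3 the library with hemocyte markers. Their part in these values was not tested. The 8 pan-neuronal markers summed to 4910 to 5646 CPM over the 6 libraries, with Prp3-RNAi library 3 the lowest.

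**Figure D5:**
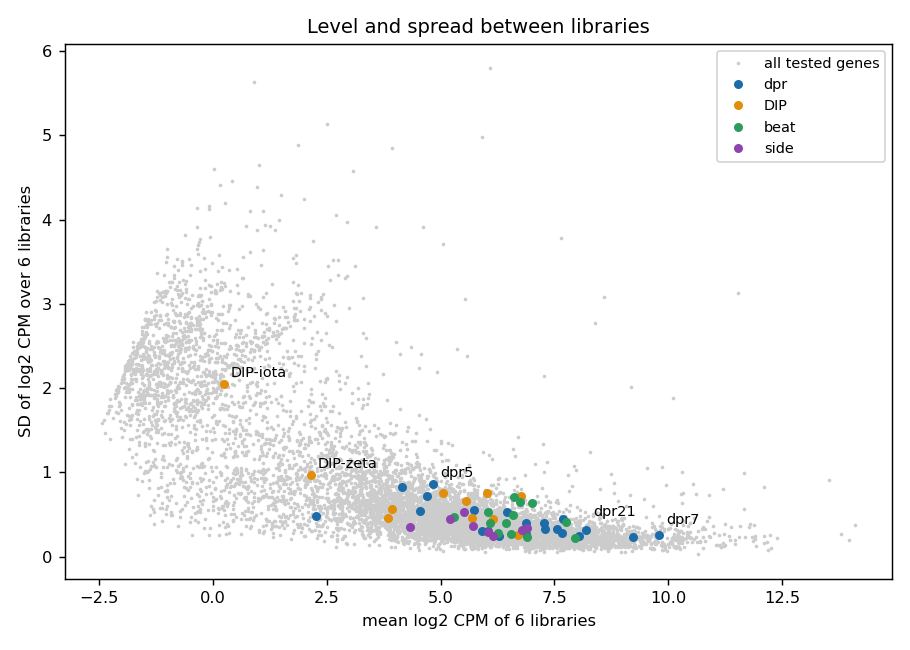
Mean log2 CPM and SD of log2 CPM over the 6 libraries for all tested genes in grey and for the 4 families in colour. Most members lie in the right part of the plot, with DIP-iota at an SD of 2.05 and DIP-zeta at 0.97 the most variable.

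The spread between libraries was near that of all tested genes, but genes of similar level were not compared. The SD of log2 CPM over the 6 libraries had a median of 0.41 over the members and of 0.46 over all tested genes, whose median level was lower (33.2 CPM, against 78.4 CPM for the members). It was lower, 0.34, for 59 other wiring genes (median level 59.8 CPM) and 0.21 for the 8 pan-neuronal markers (620 CPM). The DIP genes varied most, with a median SD of 0.67, and the dpr genes least, with 0.32. Among the steadiest members were beat-VII (SD 0.23), dpr21 (0.23) and beat-Ic (0.23). The members with an SD over that of dpr16, at 0.72, were dpr5, dpr15, DIP-beta, DIP-theta, DIP-zeta and DIP-iota.

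The members share a gene structure that the choice by symbol did not use and that other neuronal genes listed here also have. All 53 tested members spanned more than the median of tested genes, with a median span of 35624 bases against 2884, although their median exon length of 3490 bases was closer to the 2128 of all tested genes. The annotation gave the transcript with the most exons 5 to 20 introns, with family medians of 7 for dpr, 10 for DIP, 6 for beat and 16.5 for side. The 59 other wiring genes had a median span of 40180 bases, with 3016 for the shortest. Their median was 10 introns, against 7 for the members. For the 8 pan-neuronal markers the medians were 32727 bases and 9.5 introns. Members with 10 or more introns (15 genes, all of them DIP or side genes) had a median log2 fold change of 0.14, where the 774 tested genes of that class had 0.10. The 38 members with 5 to 9 introns had -0.04, where the 1924 tested genes of that class had 0.04. On the second chromosome, which carries the hairpin, 1 of 22 tested members had an unadjusted p-value under 0.05, beat-IIIb, where 10.3% of all tested genes on that chromosome did. Elsewhere 5 of 31 members did, where 9.57% of the tested genes annotated there did, and the difference between the chromosomes was not tested.

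Other genes of neuronal wiring were compared in 4 lists of 63 genes, of which 59 were tested. None was called in edgeR's test. The unadjusted level of 0.05 was reached by 4 (6.78%), against 9.98% of all tested genes, with 3 higher and 1 lower in Prp3-RNAi. The median log2 fold change over the 59 genes was 0.07, and 39 of them were above 0. Nrx-1, the presynaptic adhesion gene neurexin, had 240, 162 and 149 CPM in control and 320, 203 and 232 CPM in Prp3-RNAi, a log2 fold change of 0.46 (SE 0.11, p-value 0.00912 before and 0.424 after adjustment), and was the only gene of the lists that DESeq2 called. Dscam1, an adhesion gene known for its very many splice forms, had 135, 122 and 109 CPM in control and 81.4, 104 and 86.5 CPM in Prp3-RNAi, without overlap, a log2 fold change of -0.43 (SE 0.15, p-value 0.0349 before and 0.47 after adjustment). The others were hbs, at 0.96 (SE 0.38), and the guidance cue gene Sema1b, at 0.44 (SE 0.17). Of the 14 genes of leucine-rich repeat surface proteins, 12 were tested and 0 reached that level. Among those not tested was cDIP, whose product binds many Dpr and DIP proteins, at 0.890 CPM or less in every library.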

How the data were processed

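Per the submitters' processing notes, the tools were Trim Galore 0.6.7 and STAR 2.7.0a with genome build dm6. The annotation used for counting is not given in the sources used here. The deposited files hold raw read counts per gene, 1 library per file. The column for both strands was used, since the first of the strand columns held 50.0% to 50.1% of stranded gene counts. Lines that name no gene held 18.5% to 24.4% of reads and were left out.

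Differences were tested with edgeR 4.0.16 in R 4.3.3 (glmQLFit, glmQLFTest, two-sided; TMM; filterByExpr with min.count 10 and min.total.count 15, which kept 8708 genes), with the pair as a block and Benjamini-Hochberg adjustment over all genes tested. All p-values in the text are from this test unless another tool is named. The SE follows from the fold change and its F statistic. log2 CPM used a prior count of 2. Alternatives were DESeq2 1.42.0, limma-voom (limma 3.58.1), no block, DESeq2 size factors in edgeR, other filters, leaving out each pair, and 2 added after the data were seen: summed strand columns, and no control library 3 with no block. Deviations of log2 CPM from group means correlated across genes at 0.0458, 0.266 and 0.236 in the stated pairs and at -0.252 to 0.0203 in the others. The pairing comes from the titles. The coefficient of variation between libraries, from edgeR's common dispersion over all tested genes, was 58.3% (65.1% with no block). It may be in part technical. Gene counts per library ran from 24477244 to 32551739.

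Members, gene lists and marker lists were chosen with earlier results of these data known. Values in every library are given for the top 3 genes of each family by control CPM per kb, genes with an unadjusted p-value under 0.05 or an adjusted one in any alternative, the largest fold change in the same direction in all pairs per family, and known partners. In the lists of other wiring genes, the genes named are those with the smallest p-values. A few further members and cell markers are named beside a result they touch, chosen after their values were seen. Symbols of 17161 of the 17868 genes matched the annotation.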

Additional observations from a re-analysis of the deposited data

How the results depend on the processing

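Of 308 fold changes of the 28 named members under 11 alternatives, 296 kept their direction and their side of the threshold; 22 members never changed sign. beat-IIIb alone became called, by DESeq2 (log2 fold change 0.53). DIP-kappa changed sign with no replicate block (-0.084) and with limma-voom (-0.094). Without control library 3 and with no replicate block, which was added after the data were seen, the sign changed for dpr7 (0.057), dpr18 (0.24), DIP-lambda (-0.017), DIP-kappa (-0.46) and beat-IIb (-0.026). Without 1 pair each, the ranges were -0.18 to 0.15 for dpr18, -0.27 to 0.36 for DIP-kappa, -0.67 to 0.16 for beat-Vc and -0.059 to 0.25 for beat-IIb. The cause was not tested.

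The number of genes called, 0 in the main edgeR fit (869 at an unadjusted p-value under 0.05), was 8 with no replicate block, 380 with DESeq2, 4 with limma-voom, 11 with the filter of at least 1 count, 4 with that of at least 50 counts in 3 libraries, 6 without control library 3 and with no replicate block, and 0 to 4 without 1 pair each. At an unadjusted p-value under 0.05 it was 421 with no replicate block, 526 when control library 3 was also left out, and 529 to 756 without 1 pair each. Members at that level numbered 6 in the main fit, and the genes changed with the fit. With no replicate block they were side-VI, dpr16 and DIP-delta, where 4.83% of all tested genes reached it. When control library 3 was also left out they were dpr16, dpr10 and beat-Ia, where 5.73% did. Without 1 pair each they numbered 5 to 8, where 5.99% to 8.35% of all tested genes did. Without pair 2, only beat-IIIb of the 6 in the main fit was among them. The median log2 fold change over all members was -0.045 with no replicate block, -0.042 with limma-voom and -0.090 without control library 3 and with no replicate block. The last fit also gave -0.25 for the dpr family. Called members numbered 1 with DESeq2. Of the 12 leading genes by level per kb, 8 also led by CPM. Precision was limited by 3 libraries per group. The coefficient of variation of 58.3% is a value over all tested genes, not over the members. The median SE was 0.18 for the members and 0.29 for all tested genes.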
